A study of Sus scrofa with 9 samples.

Results

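Esophageal submucosal glands (ESMG) of the pig were compared with the squamous tissue that overlies them, using the 6 tissue arrays of a 9-array series. The 6 were chosen by title, with 1 ESMG and 1 squamous sample from each of pigs 37, 39 and 40; the source of all 6 is given as control pig esophagus. The other 3 arrays hold spheroids grown from ESMG in Matrigel with recombinant human epidermal growth factor, labelled pigs 1, 2 and 3, and enter here through the shared estimate of spread and as levels beside those of the tissues. The labels state no age, sex or strain, and not how the glands were freed from the wall. Arrays are named below by tissue and pig, as ESMG 37 or squamous 37. Total RNA of each sample was measured on 1 Affymetrix PorGene 1.0 ST array, and values are log2 RMA levels, so that a difference of 1 is a 2-fold difference. Levels are compared between arrays for the same gene and not between genes, since probe sets differ in brightness.

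Submucosal glands lie below the epithelium and send mucus, bicarbonate, antimicrobial proteins and growth factors through ducts to the esophageal surface. Mucous cells fold and glycosylate large mucins in the endoplasmic reticulum (ER) and Golgi and store them in granules. Serous cells and ducts add enzymes, salt and water under the control of nerves acting through calcium and cyclic AMP. The overlying tissue is a stratified squamous epithelium, renewed from a basal layer, on a connective tissue that can hold the smooth muscle of the muscularis mucosae.

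The 6 arrays separated by tissue, with 1 array nearer the middle. The first principal component of the 12217 named genes held 59.2% of the variance of the tissue arrays and placed ESMG 37 at -34.7 and ESMG 39 at -34.6. ESMG 40 lay at -6.74, and the squamous arrays ran from 18.5 to 33.7. A second feature concerned squamous 37, which was the highest squamous array for 23.0% of all genes. It was the highest for 43 of 64 matrix genes, 23 of 34 leukocyte genes and 19 of 30 antimicrobial and antiprotease genes, and for 12 of 43 glycosylation and 11 of 42 ER folding genes. Marker genes of 13 cell types were looked up, and 36 of 57 had a probe set with 1 symbol. All 4 measured markers of mucous cells (MUC19, AGR2, SPDEF and CLCA1) and all 3 of simple epithelium (KRT8, KRT18 and KRT19) were higher in ESMG. KRT5 and CRNN, markers of basal and upper squamous cells, read 12.42 to 13.12 and 12.12 to 12.54 in the ESMG arrays against 13.15 to 13.39 and 12.66 to 12.72 in the squamous arrays, so neither marker was near the floor in ESMG. In such bulk samples, fewer cells of a type and less RNA per cell cannot be told apart.

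A gene was called when its limma adjusted p was below 0.05 and its groups differed 2-fold or more. By this rule 374 of 12217 genes (3.06%) differed, 324 of them (2.65%) higher and 50 (0.409%) lower in ESMG. With pig as a fixed replicate block the shares were 2.73% (333) and 0.524% (64), and with pig as a random block the counts were 300 and 35. The rises were also larger than the falls: 93 genes rose at least 4-fold and 20 at least 16-fold, whereas 1 gene fell at least 4-fold. In 373 of the 374 the ESMG and squamous arrays did not overlap; over all genes tested 21.6% of genes did not overlap, 9.88% in the direction of ESMG and 11.7% in that of squamous tissue. Most genes sat slightly below 0, with a median log2 difference of -0.06 and quartiles of -0.21 and 0.11. The number of falls depended on single arrays: without ESMG 40 there were 122, which brought all calls to 569. It was 25 without ESMG 37, 24 without ESMG 39, 30 without squamous 37 and 27 without squamous 40.

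**Figure D1:**
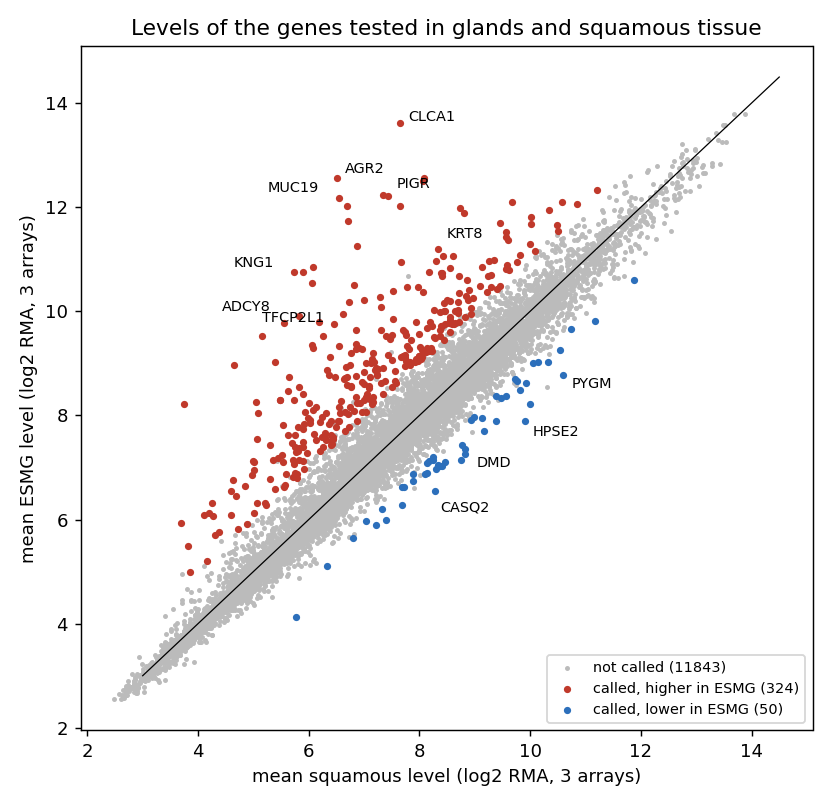
Mean log2 RMA level of each of the 12217 genes in 3 squamous arrays (horizontal axis) and 3 ESMG arrays (vertical axis), with the line of equal levels; red points are the 324 genes called higher in ESMG and blue points the 50 called lower. The red points reach farther from the line than the blue ones, with AGR2, CLCA1 and MUC19 among the farthest.

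Genes of mucus led the difference. AGR2, an ER protein that mucin folding needs, read 12.88, 12.64 and 12.16 in ESMG 37, 39 and 40, against 8.27, 5.24 and 6.03 in squamous 37, 39 and 40. CLCA1, a protein secreted by mucous cells, read 13.76, 13.82 and 13.25 against 9.56, 6.32 and 7.06. MUC19, a gel-forming mucin of mucous glands, read 12.73, 12.49 and 11.29 against 7.45, 6.06 and 6.15. For each of the 3 genes the lowest ESMG array was that of pig 40 and the highest squamous array that of pig 37, and the groups stayed apart by more than 2 log2 units. The log2 differences were 6.05 for AGR2 (SE 0.57, adjusted p = 0.000106), 5.96 for CLCA1 (SE 0.61, adjusted p = 0.00019) and 5.62 for MUC19 (SE 0.39, adjusted p = 1.3e-05). Without squamous 37 they were 6.93 for AGR2 and 6.92 for CLCA1, and without that of pig 39 they were 5.41 and 5.30. Of 12 measured members of the mucus list 4 were higher (33.3%) and none lower, with a median of 0.87. The other called member was OLFM4, a secreted glycoprotein of gut crypts, at 2.82 (SE 0.60, adjusted p = 0.0169), with ESMG 37 the highest array at 10.07; it was not called without squamous 39 (0.0595) or squamous 40 (0.0722). The membrane mucins MUC1 and MUC4, which were picked after their values were seen, differed by 0.79 and 0.96 with adjusted p of 0.0145 and 0.0133, under the 2-fold minimum and with squamous levels under the lower quartiles of the tissue arrays.

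The list of antimicrobial and antiprotease proteins, which also holds other secreted proteins such as PHEROC, CP and CA6, had the largest called share. Of 30 measured members 13 were higher in ESMG (43.3%) and none was lower, and the list median was 0.79. The list was filled with earlier results of these data known, so its rank among the lists depends on that choice. The median was 0.34 with array weights and 1.52 with the dimmest genes left out, where 10 members were called. The secretoglobin SCGB1D1, a small secreted protein, read 12.78, 12.61 and 10.67 in ESMG of pigs 37, 39 and 40 and 8.23, 5.18 and 6.70 in squamous tissue, a difference of 5.32 (SE 0.68, adjusted p = 0.000801). PHEROC, a pheromone carrier of pig saliva, read 12.21, 12.69 and 11.80 against 9.03, 5.08 and 7.95, a difference of 4.88 (SE 0.74, adjusted p = 0.0024). WFDC2, a small protein with antiprotease domains, was 21.9-fold higher (4.45, SE 0.44). All 3 had their highest squamous array in pig 37, and without it the differences were 6.08, 5.72 and 5.11. Without squamous 39 they were 4.56 for SCGB1D1 and 3.74 for PHEROC, and without ESMG 40 that of SCGB1D1 was 5.99. The other called members were inhibitors of proteases (SERPINA1, 12.9-fold; PI3, 4.82-fold; SLPI, 3.46-fold), proteins that bind or kill microbes (DMBT1, 5.44-fold; LCN2, 3.58-fold; PGLYRP1, 3.44-fold; LPO, 2.87-fold), the copper carrier CP (3.48-fold), the secreted carbonic anhydrase CA6 (4.41-fold) and the salivary lipocalin SAL1. LYZ, the lysozyme gene, did not reach a call: it read 11.60, 10.98 and 9.43 in ESMG and 10.87, 6.26 and 6.28 in squamous tissue (2.86, SE 1.00, adjusted p = 0.134), and squamous 37 lay above ESMG 40.

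Genes that carry antibodies to the surface rose as well. PIGR, the epithelial receptor that moves polymeric antibodies into secretions, read 12.56, 12.15 and 11.96 in ESMG and 8.29, 7.07 and 6.97 in squamous tissue, a 27.5-fold difference (4.78, SE 0.30, adjusted p = 9.98e-06). CCL28, an epithelial chemokine that draws antibody-secreting cells, read 11.12, 10.68 and 9.84 against 6.64, 5.92 and 5.57 (4.50, SE 0.34). JCHAIN, which joins antibodies into polymers in plasma cells, read 13.15, 12.33 and 12.21 against 10.00, 7.09 and 7.17 (4.47, SE 0.61, adjusted p = 0.00124) and differed by 5.43 without squamous 37. The plasma cell markers did not move alike. DERL3, an ER quality-control protein abundant in plasma cells, was 2.81-fold higher and TNFRSF17, their survival receptor, 1.90-fold higher (adjusted p = 0.00879, under the fold minimum), while MZB1 differed by 0.14. In all, 4 of 15 measured genes of this list were higher (26.7%) and none lower, with a median of 0.38. ESMG 37 was the highest ESMG array for 12 of the 15, and without it the median was 0.10; without ESMG 39 it was 0.63. The median was 0.18 with the dimmest genes left out. The 4 genes were called in each of these fits.

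**Figure D2:**
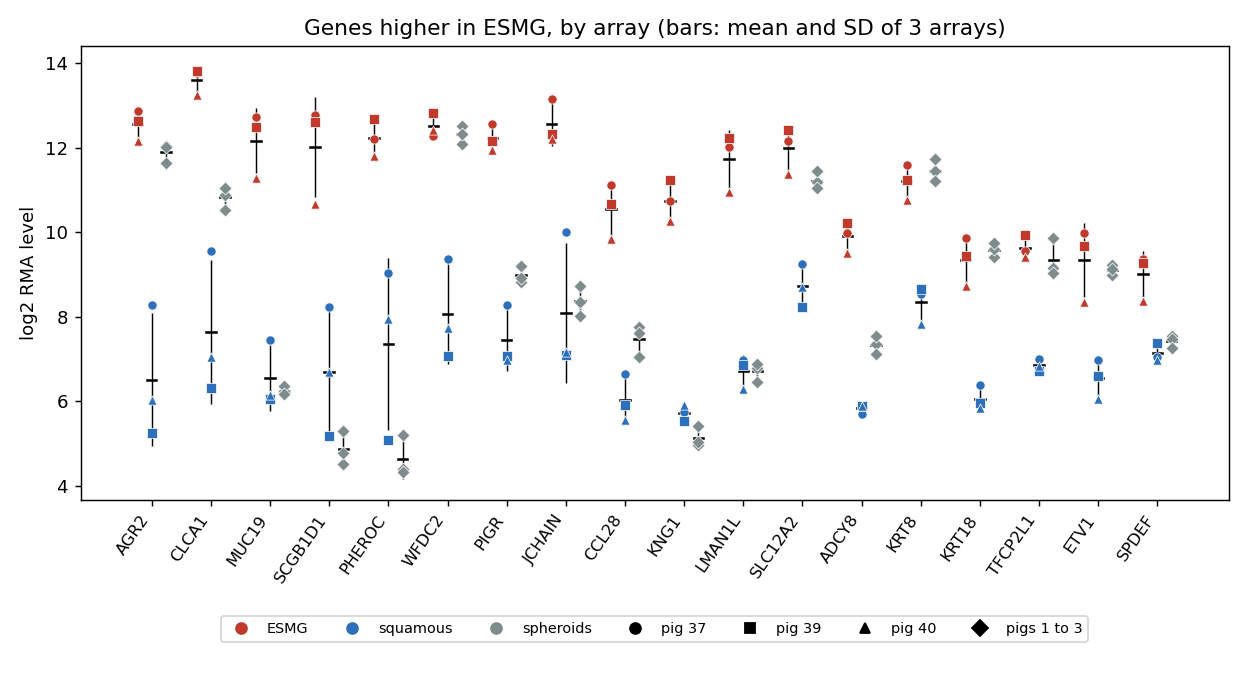
Log2 RMA level of 18 genes higher in ESMG, 1 column of points per group: ESMG in red, squamous tissue in blue and spheroids in grey, with the marker shape giving the pig and the bars the mean and SD of 3 arrays. In each gene shown the 3 ESMG arrays lie above the 3 squamous arrays, and in AGR2, CLCA1, WFDC2 and JCHAIN the squamous circle of pig 37 stands above the other squamous points.

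Part of the machinery that makes secreted proteins was higher in ESMG. In the list of ER folding and stress response 11 of 42 measured members rose (26.2%) and none fell, with a median of 0.62 and 37 members above 0. The count was 18 without ESMG 40 and 7 without squamous 39. Its 3 largest rises were CREB3L1 and XBP1, transcription factors that widen the secretory pathway, and DNAJC10, an ER enzyme that reduces disulfide bonds. CREB3L1 read 11.10, 10.96 and 10.43 in ESMG and 8.58, 8.79 and 8.30 in squamous tissue (2.27, SE 0.20, adjusted p = 7.05e-05). XBP1 read 11.76, 11.81 and 11 against 9.59, 9.47 and 9.65 (1.95, SE 0.22). DNAJC10 read 12.28, 12.38 and 10.82 against 9.91, 9.88 and 10.24 (1.82, SE 0.35). In all 3 ESMG 40 was the lowest ESMG array and still above its squamous partner. The CREB3 family was picked after its values were seen. Of its 5 measured members 4 were called higher (80.0%, against 2.65% of all genes). They were CREB3L1, CREB3L4 at 1.63, CREB3L2 at 1.27 and CREB3 at 1.2. CREB3L2 was not called in 5 of the other settings run. Genes of the ER stress sensors gave mixed values, picked out after they were seen: EIF2AK3 rose by 1.49 (SE 0.27, adjusted p = 0.00634), while ATF6 and ERN1 differed by 0.19 and 0.08. The chaperone HSPA5 differed by 0.41 (SE 0.24, adjusted p = 0.399).

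Genes of entry into the ER and of transport onward gave fewer calls. Of 29 genes of ER translocation, 2 rose (6.90%, against 2.65% of all genes), with a median of 0.48. They were SRPRB, a subunit of the receptor that docks ribosomes, at 1.13 (SE 0.23, adjusted p = 0.0147), and RRBP1, a ribosome-binding ER protein, at 1.08 (SE 0.25, adjusted p = 0.0244). These calls rested on few arrays. SRPRB was lost without ESMG 37 or 39 or squamous 39 (adjusted p from 0.0590 to 0.0639). RRBP1 was lost without either of those ESMG arrays or squamous 37 or 39 (0.0559 to 0.0992) and with pig as a fixed replicate block (0.0537), which left 1 call in the list. The list held 7 calls without ESMG 40, 1 without squamous 37 or squamous 39, and none without ESMG 37 or ESMG 39. Of 40 genes of vesicle coats and Golgi transport 5 rose (12.5%) with a median of 0.52, and 8 without ESMG 40. GOLM1, a Golgi membrane protein, was 7.26-fold higher (2.86, SE 0.22) and KDELR3, which returns ER proteins from the Golgi, 4.83-fold (2.27, SE 0.26). The cargo receptor LMAN1 was 3.43-fold higher and MIA3, which loads large cargo into vesicles, 2.41-fold. LMAN1L, a relative of LMAN1 outside the list, was among the 12 largest rises: it read 12.01, 12.24 and 10.96 in ESMG and 6.99, 6.87 and 6.29 in squamous tissue (5.03, SE 0.30, adjusted p = 8.44e-06).

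Mucin glycosylation followed the same direction, with 14 of 43 measured genes higher (32.6%, against 2.65% of all genes), none lower and a median of 0.70. The called genes included members of several steps of the pathway. Among genes of sugar donor synthesis, GFPT1, the first enzyme of the hexosamine route, was 4.75-fold higher. GMDS, of GDP-fucose synthesis, was 5.07-fold higher (2.34, SE 0.21). GNE and NANS, of sialic acid synthesis, were 2.46-fold and 2.52-fold higher, and GNE was not called without ESMG 39 (adjusted p = 0.0512). The first sugar of mucin chains is added by GALNT enzymes, of which 4 of 15 measured were higher, GALNT7 and GALNT12 both by 3.14-fold. Chains are then extended and capped. ST6GALNAC1, which adds sialic acid to the first sugar, read 10.91, 11.44 and 10.50 in ESMG and 7.81, 7.91 and 7.29 in squamous tissue (3.28, SE 0.26, adjusted p = 2.85e-05). B3GALT5, which adds galactose, read 10.81, 9.82 and 8.34 against 7.63, 6.93 and 7.38 (2.34, SE 0.47, adjusted p = 0.0133); it was 3.00 without ESMG 40 and not called without ESMG 39 or squamous 39 (0.0512 and 0.0587). CMAH, which turns the common sialic acid into its glycolyl form and was picked after its value was seen, was 8.47-fold higher (3.08, SE 0.26). The count of the list was 9 without ESMG 39 or squamous 39.

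Granule and exocytosis genes were higher in 5 of 39 (12.8%), and the median of that list was 0.02. SCGN, a calcium sensor of secretory cells, read 8.40, 9.64 and 8.84 in ESMG and 5.27, 3.83 and 4.86 in squamous tissue (4.30, SE 0.42), its squamous level lying under the lower quartile of each tissue array, so that its fold depends on values near the floor. MYO5C, a motor that carries granules in exocrine cells, was 8.48-fold higher (3.08, SE 0.33) and CADPS2, a granule priming factor, 4.63-fold (2.21, SE 0.26). The small GTPase RAB27A and the syntaxin-binding STXBP6 were 2.50-fold and 2.61-fold higher. RAB27A was not called without ESMG 37, ESMG 39 or squamous 39 (0.0722 to 0.0788). It was 1 of 49 measured RAB genes, of which 1 rose and 1 fell.

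Fluid secretion genes split between a called minority and a larger part near 0. Of 43 measured genes of chloride, bicarbonate and water transport 10 were higher (23.3%) and 1 lower, and the median was 0.07. SLC12A2, which loads chloride into secretory cells, read 12.17, 12.42 and 11.39 in ESMG and 9.25, 8.24 and 8.71 in squamous tissue (3.25, SE 0.29, adjusted p = 7.05e-05). The exits for chloride, potassium and water were CFTR (4.38-fold, from a squamous level under the lower quartiles), the potassium channel KCNN4 (4.13-fold) and AQP5 (4.91-fold; 2.30, SE 0.23), whereas the chloride channel ANO1 differed by 0.45 (SE 0.14, adjusted p = 0.0967). SLC5A8, a carrier of short fatty acids and iodide, was 4.82-fold and SLC5A5, the iodide carrier, 3.01-fold higher; LPO, the peroxidase that uses such halides, is given above. The sodium pump subunit ATP1B1 was 3.67-fold higher. ATP6V1B1, the proton pump subunit that fell by 1.03, was not called without ESMG 37, squamous 37, ESMG 39 or squamous 40.

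Among receptors and second messengers of secretion 6 of 55 were higher (10.9%) and 1 lower, with a median of 0.12. Adenylyl cyclases, which make cyclic AMP, went both ways. ADCY8, a form stimulated by calcium, read 9.99, 10.23 and 9.50 in ESMG and 5.71, 5.90 and 5.89 in squamous tissue, a 16.8-fold difference (4.07, SE 0.19, adjusted p = 8.82e-07). ADCY2 was 3.73-fold higher. ADCY5, a form inhibited by calcium, read 5.89, 5.74 and 6.33 in ESMG against 7.34, 7.34 and 7.51, a 2.66-fold fall (-1.41, SE 0.17, adjusted p = 0.000569). Of 9 measured cyclases these 3 were called. GABRP, a subunit of a GABA-gated chloride channel, was 6.70-fold higher (2.74, SE 0.43; 3.38 without squamous 37), and RGS4, a brake on G protein signals, 5.59-fold (2.48, SE 0.45). The calcium store sensor STIM2, also of this list, was 2.44-fold higher. Of 7 measured ATP2 calcium pump genes, a family picked after its values were seen, 2 were higher and the median was 0.04: the store pump ATP2A3 8.01-fold (3.00, SE 0.19) and the Golgi pump ATP2C2 2.94-fold.

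**Figure D3:**
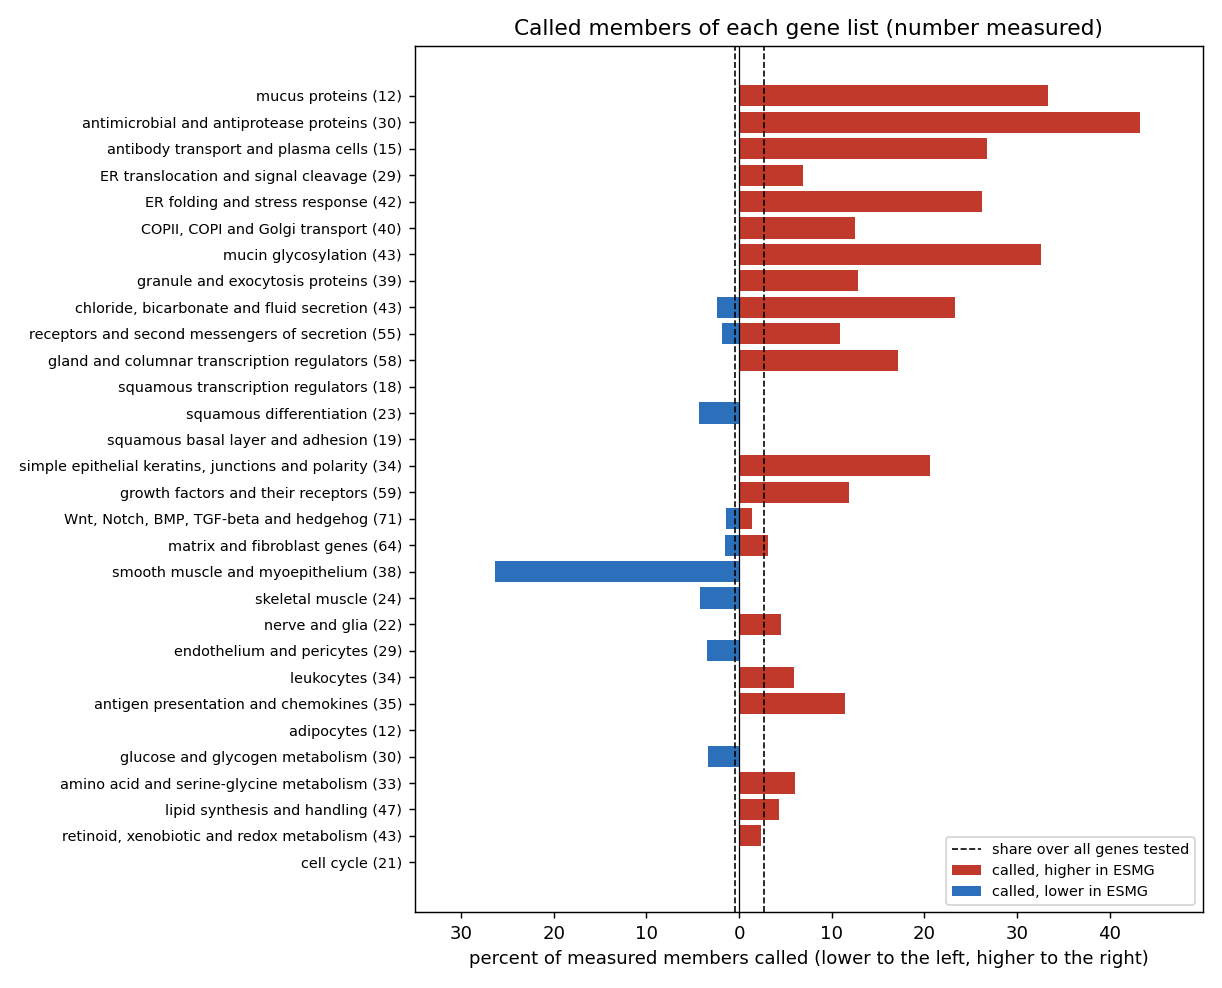
Share of the measured members of 30 gene lists called higher (red, to the right) or lower (blue, to the left) in ESMG, in percent, with the number measured in parentheses and dashed lines at the shares over all genes tested, 2.65% and 0.409%. The antimicrobial list has the longest red bar at 43.3%, and the list of smooth muscle and myoepithelium the longest blue bar at 26.3%.

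Of 58 measured gland and columnar transcription regulators 10 were higher (17.2%) and none lower, and the median was -0.02. TFCP2L1, a Grainyhead relative of ducts, read 9.56, 9.93 and 9.42 in ESMG and 7.01, 6.72 and 6.83 in squamous tissue (2.78, SE 0.22, adjusted p = 2.85e-05). ETV1, an ETS factor downstream of receptor kinases, read 9.99, 9.68 and 8.34 against 6.98, 6.61 and 6.06 (2.79, SE 0.36, adjusted p = 0.000859). FOXA1, a forkhead factor that opens chromatin in glandular epithelia, was 4.37-fold higher (2.13, SE 0.26). SPDEF, the ETS factor of mucous cells, read 9.37, 9.27 and 8.38 against 7.04, 7.38 and 6.98 (1.87, SE 0.23, adjusted p = 0.000699). The others were SIX4 (1.78, SE 0.20), BHLHA15, which builds the secretory apparatus (1.66, SE 0.23), SOX9, of progenitors (1.56, SE 0.27), ID2 (1.33, SE 0.18) and the CREB3L1 and XBP1 described with the ER genes. All 10 were called in each fit that left out 1 array. Of their families, 1 of 7 measured ETV genes (14.3%), 1 of 26 FOX genes (3.85%), 1 of 14 SOX genes (7.14%) and none of 27 HOX genes rose, against 2.65% of all genes. The epithelial ETS factors ELF3, ELF5 and EHF differed by 0.16, -0.45 and 0.59.

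Regulators outside the lists were picked after their values were seen. ESRRG, an orphan nuclear receptor, read 9.42, 9.91 and 9.09 in ESMG and 7.45, 7.41 and 7.55 in squamous tissue (2.01, SE 0.21, adjusted p = 0.00021). ZBED2 was 5.32-fold, GLIS3 3.73-fold and the chromatin organiser SATB1 2.44-fold higher. NKX6-1, a homeobox factor, fell: it read 6.96, 6.86 and 7.51 in ESMG and 9.03, 8.25 and 8.12 in squamous tissue (-1.35, SE 0.24, adjusted p = 0.007). These genes do not overlap between the groups and kept their calls in all fits run.

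Epithelial identity genes differed at the keratins of simple epithelium. KRT18 read 9.86, 9.45 and 8.73 in ESMG and 6.38, 5.97 and 5.84 in squamous tissue (3.29, SE 0.25, adjusted p = 2.54e-05). KRT8, its partner, read 11.60, 11.25 and 10.76 against 8.54, 8.65 and 7.84 (2.86, SE 0.25), and KRT19, of ducts, 11.50, 10.98 and 10.73 against 8.80, 8.15 and 8.31 (2.65, SE 0.23). They were the 3 keratins called of 22 measured. The tetraspanin TSPAN1 was 20.9-fold higher (4.39, SE 0.50; 5.09 without squamous 37), the adhesion protein EPCAM 3.90-fold and CLDN8, the 1 claudin called of 12, 4.41-fold. In the list of simple keratins, junctions and polarity 7 of 34 were higher (20.6%) and none lower, with a median of 0.03.

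The squamous genes that were measured leaned the other way without reaching calls in most cases. Of 63 listed genes of squamous differentiation 23 were measured, and of 5 upper squamous markers 1, CRNN. The remaining genes of this program have no value here. All 23 measured genes were below 0, with a median of -0.58, and 1 was called (4.35%, against 0.409% of all genes lower). That gene was TGM2, a tissue transglutaminase, which read 9.6, 9.0 and 10.36 in ESMG and 10.66, 10.72 and 10.81 in squamous tissue (-1.07, SE 0.27, adjusted p = 0.0388); it was called in just 1 of the 6 fits that left out an array, the one without ESMG 40, where the list held 3 calls. With pig as a fixed replicate block the list held 2, and with pig as a random block none (TGM2 0.0689). Of 18 squamous transcription regulators and 19 genes of the basal layer none was called, with medians of -0.26 and -0.35; without ESMG 40 each list held 1 call, and without squamous 40 the regulators held 2. CDSN, a protein that glues cornified cells and was picked after its value was seen, fell by 1.23 (SE 0.31, adjusted p = 0.0409) and lost its call in 10 of 17 other settings. Cell cycle genes gave no call among 21, with a median of -0.35 and 19 of 21 below 0; 1 was lower without ESMG 40.

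The list of smooth muscle and myoepithelium, called the smooth muscle list below, held the largest share of falls. Of 38 measured members 10 were lower in ESMG (26.3%) and none higher, with a median of -0.83 and 36 members below 0. DMD, dystrophin, read 7.02, 7.42 and 7.30 in ESMG and 8.87, 8.44 and 9.19 in squamous tissue (-1.59, SE 0.21, adjusted p = 0.000897). PLN, which restrains the calcium pump of muscle, read 7.04, 6.97 and 7.05 against 8.75, 8.05 and 8.40 (-1.38, SE 0.19, adjusted p = 0.00139). PRUNE2 read 8.35, 7.48 and 8.82 against 10.07, 9.6 and 10.29 (-1.77, SE 0.35, adjusted p = 0.0128), and CASQ2, which stores calcium in muscle, fell by 1.73 (SE 0.39, adjusted p = 0.0217). DMD and PLN kept their calls throughout, although a dimmer probe set of DMD gave -0.65 and was not called. PRUNE2 lost its call without squamous 40 (0.0619), and CASQ2 without ESMG 37, squamous 37, ESMG 39 or squamous 40 (0.0608 to 0.0905). The count of 10 was 22 without ESMG 40, 5 without ESMG 37 and 4 without ESMG 39 or squamous 37 or 40. Of 5 smooth muscle markers 3 were measured (not MYH11 or DES), and they moved less than DMD, PLN, PRUNE2 and CASQ2. ACTA2, smooth muscle actin, read 12.54 to 12.68 in ESMG and 12.57 to 12.88 in squamous tissue (-0.09, SE 0.14). ACTG2 differed by -0.62 (SE 0.28). CNN1 differed by -0.99 (SE 0.25, adjusted p = 0.0377), just under the fold minimum and beyond the list median of -0.83.

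Other leading falls included genes of muscle and of matrix. HPSE2, a heparanase relative that binds heparan sulfate without cutting it, read 7.44, 7.82 and 8.43 in ESMG and 9.74, 9.69 and 10.26 in squamous tissue (-2.0, SE 0.23, adjusted p = 0.000426). FRAS1, a matrix protein of the epithelial basement membrane, fell 2.77-fold (-1.47, SE 0.22), CAP2, an actin regulator of muscle, 2.78-fold (-1.47, SE 0.24), HTR2A, a serotonin receptor, 2.79-fold (-1.48, SE 0.27) and PTCHD1, a membrane protein related to the hedgehog receptor, 3.03-fold (-1.60, SE 0.31). These 5 kept their calls in all fits run. PYGM, the glycogen phosphorylase of muscle, read 8.83, 7.6 and 9.90 against 10.35, 10.43 and 11.01 (-1.82, SE 0.43, adjusted p = 0.0278); it was -1.23 without ESMG 39 and lost its call without ESMG 37 or any 1 squamous array (0.0545 to 0.112). The probe set named for the miRNA gene MIR145, which is abundant in smooth muscle and does not separate precursor from mature arms, read 6.75, 6.4 and 5.68 against 8.50, 7.28 and 7.27 (-1.41, SE 0.33, adjusted p = 0.0266). It lost its call without squamous 37 (0.0601) or ESMG 39 (0.0647). PYGM was the 1 skeletal muscle gene called of 24; the skeletal markers ACTA1 and MYH7 differed by 0.04 and 0.26, and 2 genes of that list were lower with pig as a fixed replicate block, and none with pig as a random block (PYGM 0.0582).

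**Figure D4:**
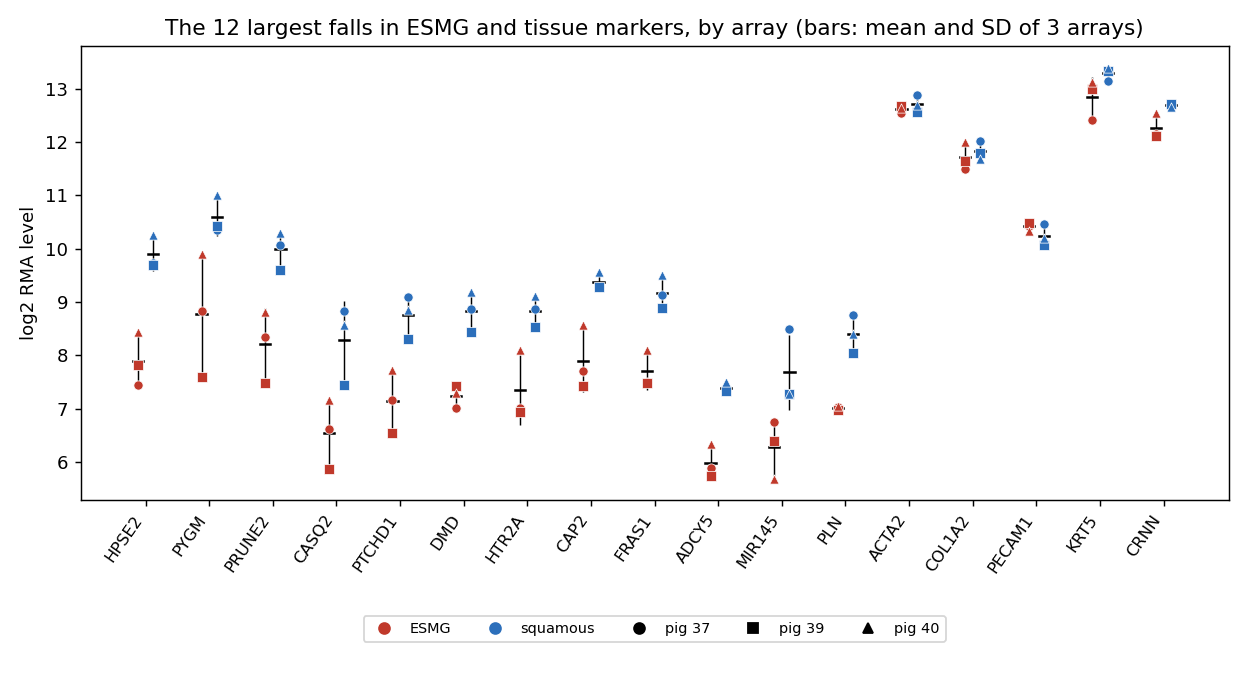
Log2 RMA level by array of the 12 genes with the largest falls in ESMG, followed by the tissue markers ACTA2, COL1A2, PECAM1, KRT5 and CRNN; ESMG is red, squamous tissue blue, the marker shape gives the pig and the bars give the mean and SD of 3 arrays. The groups separate in each of the 12 falls, from HPSE2 at -2.0 to PLN at -1.38, while ACTA2, COL1A2 and PECAM1 overlap.

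Of 64 measured matrix and fibroblast genes 2 were higher (3.12%) and 1, HPSE2, lower (1.56%), shares near or above the 2.65% and 0.409% of all genes, and the median was 0.01. None of the 30 measured collagens was called. COL1A2 read 11.50 to 12.01 in ESMG and 11.69 to 12.02 in squamous tissue (-0.12, SE 0.18) and LUM, a collagen-binding proteoglycan, differed by 0.27 (SE 0.31). THBS1, a matrix protein that activates TGF-beta, read 12.34, 11.92 and 12.03 in ESMG and 10.77, 7.94 and 10.34 in squamous tissue (2.41, SE 0.55, adjusted p = 0.0248); it was 1.54 without the low squamous array of pig 39 and lost its call without ESMG 37 (0.0865) or 39 (0.0625). MMP7, a protease of glandular epithelium, was 2.03-fold higher (1.02, SE 0.25, adjusted p = 0.0375) and kept its call in 1 of the 6 fits that left out an array, the one without ESMG 39. Without ESMG 37 no gene of the matrix list was higher, without squamous 37, ESMG 39, squamous 39 or squamous 40 it held 1 rise, and with pig as a fixed replicate block it held 3 rises and 2 falls, against 1 and 1 with pig as a random block.

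The endothelial marker PECAM1 overlapped between the tissues, at 10.34 to 10.49 in ESMG and 10.07 to 10.46 in squamous tissue (0.18, SE 0.19). The probe sets of KDR, another such marker, differed by -0.02 and -0.2. Of 29 vascular genes 1 was called, as lower (3.45%, against 0.409% of all genes). This was A2M, a protease trap, at -1.3 (SE 0.28, adjusted p = 0.0193). It lost its call without ESMG 37 or 39 or squamous 39 or 40 (0.0538 to 0.0846). Of 22 nerve and glia genes 1 was higher (4.55%, against 2.65% of all genes), and both shares rest on 1 gene. NLGN1, a synaptic adhesion protein, was higher at 1.95 (SE 0.40, adjusted p = 0.0146) from squamous levels under the lower quartiles. It was 1.35 without ESMG 39 and not called without squamous 39 (0.0518) or 40 (0.0638). Of 12 adipocyte genes none was called, and 1 was higher without squamous 37 or 39 or ESMG 40.

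Growth factors and their receptors held 7 rises among 59 measured (11.9%, against 2.65% of all genes) and no fall, with a median of 0.01: NTN4, CTGF, NTRK2, ERBB4, NTRK3, KIT and FGF10. NTRK2, the receptor of brain-derived neurotrophic factor, read 9.47, 10.10 and 9.75 in ESMG and 8.71, 8.65 and 8.23 in squamous tissue (1.24, SE 0.23, adjusted p = 0.00923) and was called in every fit run. The other 6 were not: the count was 1 without ESMG 39, 4 without squamous 39 and 3 without squamous 40. NTN4, a secreted netrin (1.37, SE 0.32), was not called without ESMG 37 or 39 or squamous 39 or 40 (0.0861 to 0.111). CTGF, a matrix-associated factor (1.31, SE 0.33, adjusted p = 0.0403), was not called without those same arrays (0.0931 to 0.131). KIT, a receptor of gland progenitors and of mast cells (1.15, SE 0.26), was not called without ESMG 39, squamous 39 or squamous 40. Of 71 genes of the Wnt, Notch, BMP, TGF-beta and hedgehog pathways 1 rose, ID2, and 1 fell, RSPO3, a stromal enhancer of Wnt signals (-1.16, SE 0.26, adjusted p = 0.0234); the list median was -0.17. RSPO3 was not called without squamous 37 or 40 or ESMG 39; the list held 2 falls with pig as a fixed replicate block or without squamous 39, none with pig as a random block (RSPO3 0.0511), and 2 rises and 3 falls without ESMG 40.

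Chemokines that attract neutrophils were among the rises. CXCL8, which draws neutrophils, read 8.98, 10.24 and 10.60 in ESMG and 7.66, 5.55 and 6.63 in squamous tissue (3.33, SE 0.51, adjusted p = 0.00247), and CXCL2, of the same group, 9.80, 9.70 and 10.76 against 7.38, 6.82 and 7.73 (2.78, SE 0.29, adjusted p = 0.00021). Another probe set of CXCL2 gave 1.52. Of 35 genes of antigen presentation and chemokines 4 were higher (11.4%, against 2.65% of all genes), namely CXCL8, CXCL2, CCL28 and the stromal CXCL12 (2.72-fold). Of 34 leukocyte genes 2 were higher (5.88%, against 2.65% of all genes), a share that rests on 2 genes, and the median was 0.53. They were LCP1, an actin bundler of leukocytes, at 1.24 (SE 0.28, adjusted p = 0.0246), and KIT, given above with the growth factors. LCP1 was not called without ESMG 37 or squamous 39 or 40 (0.0760 to 0.0932). Pig 37 stood apart in this list: over the 34 genes its ESMG array lay 0.83 above the mean of the 6 arrays at the median, against -0.21 and 0.15 for the ESMG arrays of pigs 39 and 40, and it was the highest ESMG array for 22 of them, against 26.1% of all genes. PTPRC, the pan-leukocyte phosphatase CD45, read 9.65 in that array and 7.76 and 8.14 in the other ESMG arrays, against 7.47 to 8.29 in squamous tissue (0.73, SE 0.39, adjusted p = 0.367). The count of higher leukocyte genes was 5 without squamous 37, 1 without its ESMG array, 0 without squamous 39 or 40, 4 with pig as a fixed replicate block and 1 with pig as a random block. The list median was 0.18 without ESMG 37. The part that leukocytes have in the chemokine and plasma cell values was not tested.

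Few metabolic genes were called. The shares higher were 4.26% of lipid, 6.06% of amino acid and 2.33% of retinoid, xenobiotic and redox genes, against 2.65% of all genes. Each share rests on 1 or 2 genes, and the list medians were -0.13, 0.26 and -0.14. ACSL5 and ACSL3, which activate fatty acids, were 5.06-fold (2.34, SE 0.31) and 2.60-fold (1.38, SE 0.26) higher, the 2 called of 47 lipid genes. KYNU, of tryptophan breakdown, was 4.73-fold (2.24, SE 0.33) and ALDH18A1, of proline synthesis, 2.85-fold (1.51, SE 0.25) higher, the 2 called of 33 amino acid genes. DHRS3, which reduces retinal to retinol, was the 1 called of 43 genes of retinoid, xenobiotic and redox metabolism, at 10.59, 11.36 and 10.62 in ESMG and 9.32, 8.97 and 9.09 in squamous tissue (1.73, SE 0.25, adjusted p = 0.00153); without ESMG 40 that list held 2 higher and 2 lower. Of 30 genes of glucose and glycogen metabolism PYGM alone was called, as lower (3.33%, against 0.409% of all genes), and the median was -0.10. None of 50 ribosomal protein genes with RPL or RPS symbols, 48 respiratory genes of the NDUF and COX families or 29 proteasome genes was called, with medians of -0.04, 0.04 and -0.06.

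Of the 374 called genes 252 were outside the lists, and the families among them were picked after their values were seen. Solute carriers were higher in 21 of 234 (8.97%, against 2.65% of all genes) and lower in none (against 0.409%). SLC28A3, a nucleoside carrier, was 11-fold, SLC16A10, an aromatic amino acid carrier, 7.05-fold and SLC39A8, a zinc and manganese carrier, 6.38-fold higher. Among the 21, SLC25A32, SLC35A1, SLCO1A2 and SLC37A3 lost their calls in several settings. Of 6 measured ENPP genes, which encode ectoenzymes, 3 were higher (50.0%, against 2.65% of all genes): ENPP5 12.3-fold, ENPP4 5.25-fold and ENPP1 3.63-fold. Among single genes, the membrane peptidases ANPEP, DPP4 and MME were 5.77-fold, 4.24-fold and 3.76-fold higher. KNG1, the kininogen precursor of bradykinin, read 10.74, 11.25 and 10.26 in ESMG and 5.76, 5.53 and 5.92 in squamous tissue, a 32.3-fold difference (5.01, SE 0.23, adjusted p = 8.82e-07), and coagulation factor F5 read 8.75, 9.75 and 8.55 against 5.47, 5.15 and 5.56 (3.62, SE 0.26). For KNG1, squamous 37 was not the highest squamous array, and the squamous level of F5 lay under the lower quartiles. KIAA1324, an endosomal membrane protein of secretory epithelia, was 29.0-fold higher (4.86, SE 0.33).

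The size of the difference varied with the pig and with the gene group. Differences within a pig rest on the pig numbers of the titles, and the deviations of same-numbered arrays correlated above 0 in pig 37 alone; ESMG 40 correlated at 0.373 with squamous 39 and ESMG 39 at 0.238 with squamous 40. If numbers 39 and 40 were exchanged in 1 tissue, the within-pig values of both would change. Whether they were exchanged was not tested. Within pigs 37 and 39 the median difference of the ER folding list was 0.89 and 0.78, and within pig 40 it was 0.19. The other lists of the secretory pathway were also lowest in pig 40: 0.75, 0.67 and 0.15 for ER translocation, 0.65, 0.73 and 0.13 for vesicle coats and Golgi, and 0.79, 0.76 and 0.40 for mucin glycosylation in pigs 37, 39 and 40. In each of these lists ESMG 40 was the lowest ESMG array for most genes, which needs no pairing (32.3% of all genes): 35 of 42, 25 of 29, 36 of 40 and 27 of 43. By these within-pig medians the lists of secreted products were not lowest in pig 40. Antimicrobial and antiprotease genes differed by 0.24, 0.92 and 0.84, and mucus proteins by 0.98, 0.43 and 1.02. Without pairing, ESMG 40 was the lowest ESMG array for 8 of 30 antimicrobial and antiprotease genes. It was the lowest for 6 of 12 mucus genes, a share above the 32.3% of all genes. Genes of the smooth muscle and myoepithelium list differed by -1.08, -1.02 and -0.51. ESMG 40 was the highest ESMG array for 31 of 38 of them and for 21 of 23 squamous differentiation genes, against 45.6% of all genes. Whether this array held more wall tissue beside its glands was not tested; the smooth muscle list lay 0.48 and 0.75 below the mean of the 6 arrays in the ESMG arrays of pigs 37 and 39 and at 0.00 in that of pig 40, and the squamous differentiation list at -0.47, -0.42 and 0.02.

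**Figure D5:**
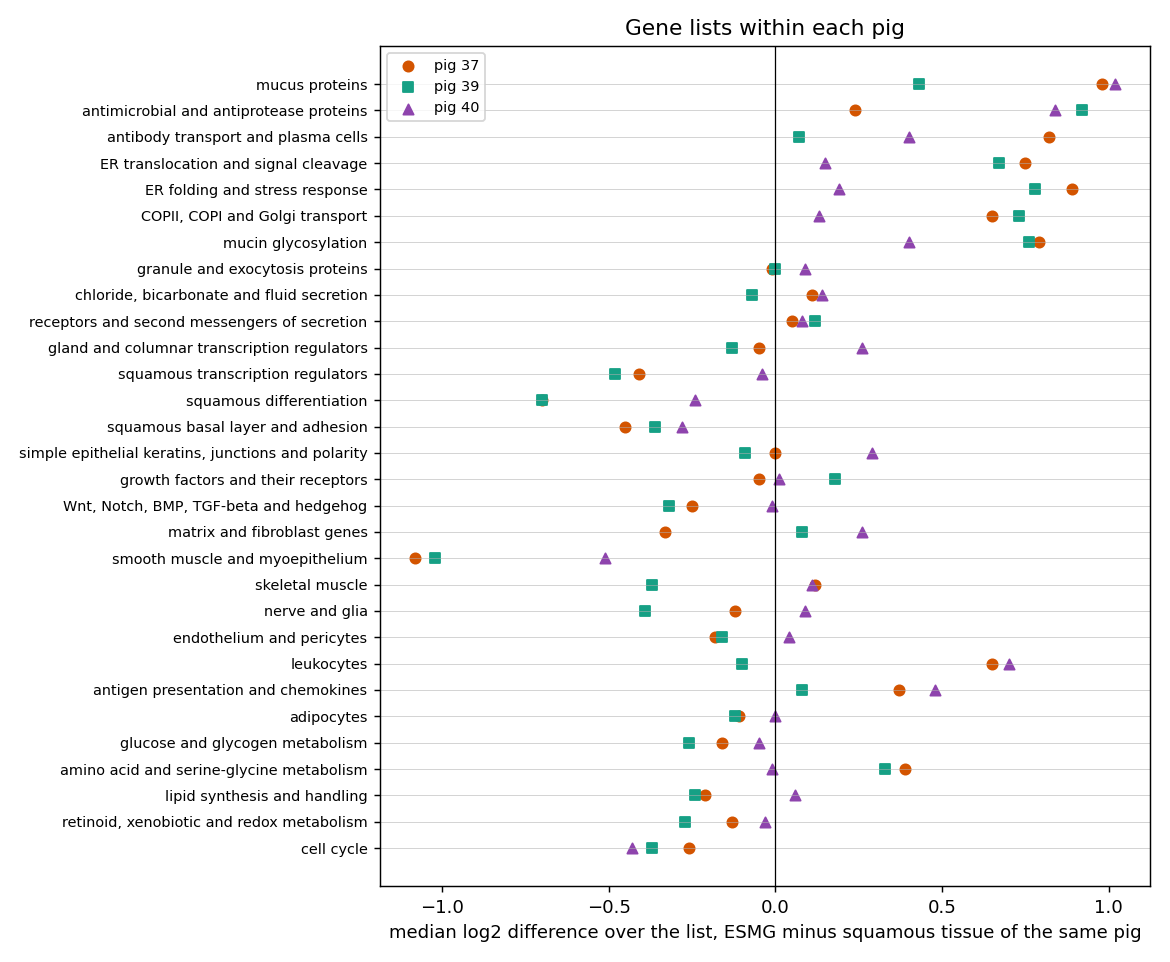
Median log2 difference of each gene list, ESMG minus squamous tissue of the same pig number, with 1 point per pig (circle 37, square 39, triangle 40). The triangles of pig 40 lie nearer 0 than the other points in the 4 lists of the secretory pathway, 0.13 to 0.40, and in the list of smooth muscle and myoepithelium, -0.51.

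Levels in the spheroids, given as a description, divided the genes higher in ESMG. Some read near the ESMG level: AGR2 at 11.90 ± 0.22 (SD, n = 3 spheroid arrays) against 12.56 ± 0.37 in ESMG, WFDC2 at 12.32 ± 0.21 against 12.52 ± 0.28, and KRT8, KRT18 and TFCP2L1 at 11.47, 9.58 and 9.35 against 11.20, 9.35 and 9.64. Others read at or below the squamous mean: MUC19 at 6.26 ± 0.10 against 6.55 ± 0.78 in squamous tissue, SCGB1D1 at 4.87 against 6.70, KNG1 at 5.14 against 5.74 and LMAN1L at 6.71 against 6.71. A further set lay between, with SPDEF at 7.43 against 7.13 in squamous tissue and 9.01 in ESMG, PIGR at 8.98 and ADCY8 at 7.34. The labels do not say how the spheroid animals relate to pigs 37, 39 and 40.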

How the data were processed

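The authors deposited log2 RMA levels from a gene-level Affymetrix Expression Console analysis of the full probe set list, per the labels. The submitters' processing notes further list Transcriptome Analysis Console 3.0, without its role. RMA makes the arrays' distributions alike, so total RNA cannot be compared, and it shrinks differences of dim genes. The sources used here do not give a genome build. No detection p-value was used, and the number of arrays limits precision.

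Of 27558 probe sets, 13157 had 1 gene symbol in the platform annotation, 523 several and 13878 none. Symbols were updated through RefSeq gene numbers (12841 matched), and the brightest probe set stood for a gene with several, which left 12217 genes. Values of 9 arrays were fitted with group means in limma 3.58.1 (R 4.3.3), which was tested on simulated data. Calls needed an adjusted p (Benjamini-Hochberg over all genes, two-sided) below 0.05 and a 2-fold difference. With 3 pigs a tissue and no pairing in this fit, p-values rest on the spread within groups, pooled over all 9 arrays. The spheroid arrays, from animals with other labels, enter this spread too. With the 6 tissue arrays alone and no replicate block, 335 genes were called.

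Genes named by rule were the 12 largest rises and 12 largest falls with arrays that did not overlap, and the cell type markers. The rule also took the 3 largest called changes of each of 30 lists and all called members of the lists of regulators. Genes named outside this rule, such as SERPINA1, LMAN1, CFTR and EPCAM, were picked after their values were seen. So were the symbol families, such as the CREB3, GALNT and adenylyl cyclase genes and the keratins. Of 1518 list symbols 1035 were measured. The members and lists were chosen with earlier results of these data known, so lists are described by counts and medians and not tested; a gene can be in several lists.

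Pairing comes from the titles, which give 1 animal per number. Deviations from the group means correlated at 0.422 within pig 37, -0.147 within pig 39 and -0.168 within pig 40. Across pigs, the ESMG array of pig 40 correlated at 0.373 with the squamous array of pig 39, and that of pig 39 at 0.238 with the squamous array of pig 40. The alternatives were 2 replicate blocks by pig, the tissue arrays alone, 3 normalizations, a filter on dim genes, averaged probe sets, array weights, an intensity trend, other fold rules and leaving out each tissue array.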

Additional observations from a re-analysis of the deposited data

Results flagged for a closer look

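Probe sets without a single gene symbol were not part of the comparison, and they held signal too: of 14401 such probe sets 226 passed the same limma rule (1.57%), 196 higher and 30 lower in ESMG, with differences from -2.58 to 6.33 on the log2 scale. Their genes are not named here. Outlying arrays within a group were not looked for by rule, since each group holds 3 arrays.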

How the results depend on the processing

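Of 75 called genes named by the rule, 58 kept their direction and call in the 16 refits, and no named gene reversed a call. Of all 374 called genes, 229 kept the call in the 17 settings that tested them, 216 of them higher and 13 lower. With pig as a fixed replicate block on the 6 tissue arrays 397 genes were called, 333 higher and 64 lower, and 365 of the 374 were among them; with pig as a random replicate block there were 335, 300 and 35. Among genes named by the rule the fixed block ended the call of RRBP1 and of no other; it also ended those of C1GALT1C1 (0.0596) and SLC35A1 (0.0676) of the glycosylation list. The random block ended those of CTGF, LCP1, MIR145, MMP7, NTN4, PYGM, RSPO3 and TGM2 (adjusted p from 0.0511 to 0.0689), which left 1 rise each in the leukocyte and matrix lists. The total moved to 713 with a fold minimum of 1.5 and to 739 with none, the higher genes to 525 and 537, and the lower genes to 188 and 202. The lower genes numbered 120 with array weights and 33 when tested against a fold of 1.2. Leaving out 1 array gave 276 to 569 calls, 252 to 447 higher and 24 to 122 lower genes. Of list medians, 12 of 480 moved by more than the spread between pigs. The cause of these shifts was not tested. For genes near the floor (39 of the 324 higher genes had a squamous level under the lower quartiles), RMA compression limits the fold.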
